A study of Homo sapiens with 12 samples.

Results

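Axon guidance ligands and receptors were described in SH-SY5Y cells, a human neuroblastoma line that grows neuron-like processes under all-trans retinoic acid (ATRA). The members were chosen by gene symbol, and 71 of the 55765 symbols in the count files matched. They comprise 37 ligands, namely 20 semaphorins of classes 3 to 7, 3 slits, 6 netrins and 8 ephrins, and 34 receptors, namely 9 plexins, 2 neuropilins, 4 ROBO receptors, 14 EPH receptors, 4 UNC5 receptors and DCC. A single antisense symbol, SEMA3B-AS1, matched the letters and was left out.

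All 12 libraries came from cells given 10 μM ATRA for 7 days, in 2 experiments of 3 control and 3 treated libraries each. In the co-treatment experiment, H2O2 was present together with ATRA for the whole 7 days, and its controls received ATRA alone. In the pre-treatment experiment, cells were given H2O2 for 72 h before ATRA, and its controls were not given H2O2. The H2O2 dose is 10 mM in the description deposited with the data and 10 μM in the methods of the study. SH-SY5Y is a subline of SK-N-SH, the source that the labels name, so all values describe 1 tumour-derived line. The labels do not say that replicates were cultured separately, and p-values measure the spread between these libraries, which may be technical.

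Growing axons read attractive and repulsive cues through receptors on the growth cone. Class 3 semaphorins are secreted and bind neuropilins, which signal through plexins of class A, whereas most other semaphorins are anchored in the membrane and bind plexins directly. Slits repel axons through ROBO receptors. The classical netrin, NTN1, attracts through DCC and repels through UNC5 receptors. Ephrins and EPH receptors are both bound to membranes and signal in both directions when cells touch. Sympathetic neuron precursors, the lineage from which neuroblastoma arises, use these cues while they migrate and extend axons.

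Promoter sequence is shown for 4 of the members described below, SEMA3C and SEMA3D, which rose after pre-treatment once control replicate 3 was left out, SEMA5A, which fell after co-treatment, and SLIT2, whose response differed between the experiments once that library was left out. The sequences are the 250 bases before the gene start in the RefSeq promoter table, and each was placed on hg19 by an exact match. That table holds 60 of the 71 members. NRP1, the only member called after pre-treatment over all 6 libraries, and UNC5B are not in it and could not be shown. Capitals mark AGGTCA, the hexamer that retinoic acid receptors bind, or the antioxidant element TGACNNNGC, searched on both strands, and the remaining bases are in lower case.
SEMA3C (chr7:80551706-80551955, minus strand): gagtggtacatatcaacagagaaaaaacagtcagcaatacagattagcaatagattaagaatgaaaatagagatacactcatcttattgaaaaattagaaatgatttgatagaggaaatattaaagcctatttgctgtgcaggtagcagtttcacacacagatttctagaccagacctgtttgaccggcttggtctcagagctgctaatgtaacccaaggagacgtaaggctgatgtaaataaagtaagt
SEMA3D (chr7:84816373-84816622, minus strand): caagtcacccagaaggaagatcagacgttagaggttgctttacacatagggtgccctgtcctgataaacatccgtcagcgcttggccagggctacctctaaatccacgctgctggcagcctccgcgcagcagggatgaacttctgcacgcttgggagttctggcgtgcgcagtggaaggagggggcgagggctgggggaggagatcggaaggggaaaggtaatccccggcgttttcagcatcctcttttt
SEMA5A (chr5:9546188-9546437, minus strand): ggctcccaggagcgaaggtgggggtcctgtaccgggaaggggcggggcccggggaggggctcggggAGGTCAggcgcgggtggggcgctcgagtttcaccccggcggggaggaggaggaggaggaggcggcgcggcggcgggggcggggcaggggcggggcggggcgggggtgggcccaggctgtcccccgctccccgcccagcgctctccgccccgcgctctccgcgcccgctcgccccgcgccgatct
SLIT2 (chr4:20253278-20253527, plus strand): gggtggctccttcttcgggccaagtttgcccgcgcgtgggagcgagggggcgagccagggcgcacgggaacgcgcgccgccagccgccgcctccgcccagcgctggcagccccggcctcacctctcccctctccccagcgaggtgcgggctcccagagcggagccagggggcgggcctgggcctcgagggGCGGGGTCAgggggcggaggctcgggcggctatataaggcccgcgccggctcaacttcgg
The SEMA5A promoter holds 1 hexamer, whose first base lies 184 bases before the start, and the SLIT2 promoter holds the antioxidant element on the opposite strand, 60 bases before the start. Neither pattern is in the SEMA3C and SEMA3D windows. Over the 300 bases that the table gives for each gene, 6 of the 60 member promoters hold the hexamer (10.0%), against 13.8% of all 35116 promoters. The antioxidant element is in 8 of the 60 (13.3%), against 13.3% of all promoters. The full retinoic acid element, 2 copies of AGGTCA in the same direction with 5 bases between them, is in none of the 60 and in 2 of all promoters.

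Libraries held 27576276 to 98287391 reads counted on genes. Values are CPM, counts divided by the library's total, scaled with edgeR's TMM factors over the 12 libraries. The libraries of the pre-treatment controls differed from each other. For each read counted on a gene, 0.800 (control replicate 1) and 0.830 (control replicate 2) were assigned to no gene feature, compared with 0.200 for control replicate 3 and 0.343 to 0.462 for treated cells. Small structured RNAs took, in the same order, 1.63%, 2.95%, 17.6% and 13.3% to 15.1% of the reads on genes. The study's clustering shows the pre-treatment experiment without control replicate 3, so values are given over all 6 libraries and over the 5 without that library. Over those 5, both controls differ from every treated library in these measures of library composition. Effects of treatment and of library composition cannot be told apart in the 5-library comparison. Of the 10 noradrenergic neuroblastoma markers, TH alone stayed under 1 CPM in all libraries. The summed level of the 5 neuronal markers was 1547 to 1565 CPM in co-treatment controls and 1165 to 1508 in treated cells, and 1302 to 1583 in pre-treatment controls and 1091 to 1287 in treated cells, so that the ranges overlapped in neither experiment. Summed glial or Schwann cell markers reached at most 9.11 CPM, and blood and endothelial markers at most 0.768 CPM.

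Per kilobase of exon, the cells contained most RNA of UNC5B, a netrin receptor that mediates repulsion, with 74.8 CPM per kb on average over the 12 libraries. It was followed by PLXNA2 (42.3 CPM per kb), a plexin that signals for neuropilins, by NTNG2 (40.4), a membrane-anchored netrin, and by SLIT3 (38.6). UNC5B had the highest mean in each of the 4 groups, whereas the order of the next 3 differed between groups. Of the 71 members, 11 reached 10 CPM per kb, 30 lay between 1 and 10, 17 between 0.1 and 1, and 13 below 0.1 CPM per kb. The most abundant member of the other families was EFNB2 (21.4 CPM per kb) among B ephrins, SEMA4C (13.3) among class 4 semaphorins, EFNA1 (9.69) among A ephrins, SEMA6C (9.45) among classes 5 to 7, ROBO2 (7.45), EPHB2 (6.94), SEMA3C (4.30), EPHA2 (1.73) and NRP1 (0.262). The ligand NTN1, the classical netrin, had 0.105 CPM per kb, and its attractive receptor DCC 0.0329. Every member had at least 1 read in the 12 libraries together, but EPHA3, EPHA4, EPHA5, EPHA7 and SEMA6B, with 4, 1, 7, 12 and 45 reads, passed the filter on low counts in neither experiment, and NTN5 and SEMA3E passed it only in the pre-treatment experiment. The other 64 members were tested in both.

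After pre-treatment the RNA of NRP1 (neuropilin 1, chromosome 10, 33466420 to 33625190 on hg19), a receptor for class 3 semaphorins and for VEGF, rose, with the largest log2FC of the members tested in that experiment. It had 0.526, 0.394 and 0.823 CPM in control replicates 1 to 3 and 6.83, 5.95 and 8.84 CPM in treated replicates 1 to 3. All treated libraries lay above all controls, control replicate 3 included, with 0.581 ± 0.220 CPM (SD, n = 3) in controls and 7.21 ± 1.48 CPM (SD, n = 3) in treated cells. The log2 fold change (log2FC, treated against control) was 3.64 (SE 0.36, adjusted p = 0.0442) over all 6 libraries, where SE is the standard error, in edgeR's quasi-likelihood test, 12.4-fold, and 4.03 (SE 0.31, adjusted p = 0.000813) without control replicate 3. Genes were called where the FDR was under 0.05 and log2FC lay beyond 1 in either direction. NRP1 was the only member called over all 6 libraries, where 0.0242% of the 24743 genes tested were called, 6 in all and all of them higher. Over 6 libraries its adjusted p rose to 0.178 to 0.408 when 1 of the other 5 libraries was left out, with a log2FC between 3.42 and 3.77. Without control replicate 3 it was called with any 1 further library left out. In the co-treatment experiment NRP1 had 2.08, 1.49 and 1.58 CPM in control replicates 1 to 3 and 2.20, 3.31 and 2.26 CPM in treated replicates 1 to 3, where the groups did not overlap either, and its log2FC of 0.60 (SE 0.27, adjusted p = 0.608) was not called. In bulk RNA, a change in the number of cells that make a transcript and a change in its level per cell cannot be told apart.

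Of the 7 class 3 semaphorins, the secreted ligands of neuropilins, none was called over the 6 libraries and 2, SEMA3C and SEMA3D, were called higher over 5. All 7 had a log2FC above 0 over the 6 libraries, and in 4 of them, SEMA3A, SEMA3C, SEMA3D and SEMA3E, every treated library lay above every control. Such a gap in the upward direction was found in 7 of the 66 members tested and in 7.97% of all genes tested. SEMA3E is included in these counts. Since the filter on low counts needed 3 libraries, SEMA3E entered the test through its treated libraries. Its gap and direction are therefore not independent of the filter. SEMA3D, a repellent of several classes of axons, had 1.22, 0.329 and 1.34 CPM in control replicates 1 to 3 and 5.72, 3.97 and 4.07 CPM in treated replicates 1 to 3. Its log2FC was 2.26 (SE 0.49, adjusted p = 0.32) over 6 libraries, where the exact test and DESeq2 called it (adjusted p = 0.00591 and 0.00089) but the quasi-likelihood test did not, and 2.62 (SE 0.48, adjusted p = 0.00726) over 5, which was called there with any 1 library left out. SEMA3C (semaphorin 3C, chromosome 7, 80371854 to 80551675), the most abundant of the class, had 15.7, 15.4 and 21.1 CPM in control replicates 1 to 3 and 30.8, 27.8 and 76.5 CPM in treated replicates 1 to 3. Treated replicate 3 held more than the other treated libraries, and without it the log2FC over 6 libraries was 0.77 in place of 1.40, which DESeq2 called (adjusted p = 0.0361) and the quasi-likelihood test did not (0.32). Over 5 libraries SEMA3C was called with a log2FC of 1.61 (SE 0.41, adjusted p = 0.0238), and the call was lost without control replicate 1, control replicate 2 or treated replicate 3 (adjusted p = 0.0988, 0.135 and 0.00241), the last by its log2FC of 0.95.

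SEMA3A, the prototype of the class and a repellent of sympathetic and sensory axons, had 0.327, 0.942 and 0.320 CPM in control replicates 1 to 3 and 2.88, 1.85 and 1.00 CPM in treated replicates 1 to 3. The log2FC was 1.90 (SE 0.57, adjusted p = 0.32) over 6 and 1.69 (SE 0.56, adjusted p = 0.0572) over 5 libraries and was called in neither by the quasi-likelihood test. DESeq2 called it over 6 (adjusted p = 0.0416) and 5 libraries (0.0141), and the exact test over 5 (0.0229). SEMA3E was at most 0.279 CPM in any library. SEMA3B, SEMA3F and SEMA3G had log2FC values of 0.01 to 0.21 over 6 libraries and of 0.12 to 0.31 over 5, and their groups overlapped in all 6. NRP2 (neuropilin 2), the preferred receptor of SEMA3F, had 2.03, 2.19 and 1.27 CPM in control replicates 1 to 3 and 2.54, 2.73 and 6.66 CPM in treated replicates 1 to 3. Its groups did not overlap, treated replicate 3 was again the highest library, and its log2FC of 1.16 (SE 0.43, adjusted p = 0.379) over 6 and 0.98 (SE 0.43, adjusted p = 0.123) over 5 libraries was not called. After co-treatment NRP2 lay on the other side of its controls, with 2.39, 1.05 and 1.23 CPM in control replicates 1 to 3 and 0.818, 0.803 and 0.70 CPM in treated replicates 1 to 3 and a log2FC of -1.01 (SE 0.37, adjusted p = 0.444), which was not called either.

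**Figure D1:**
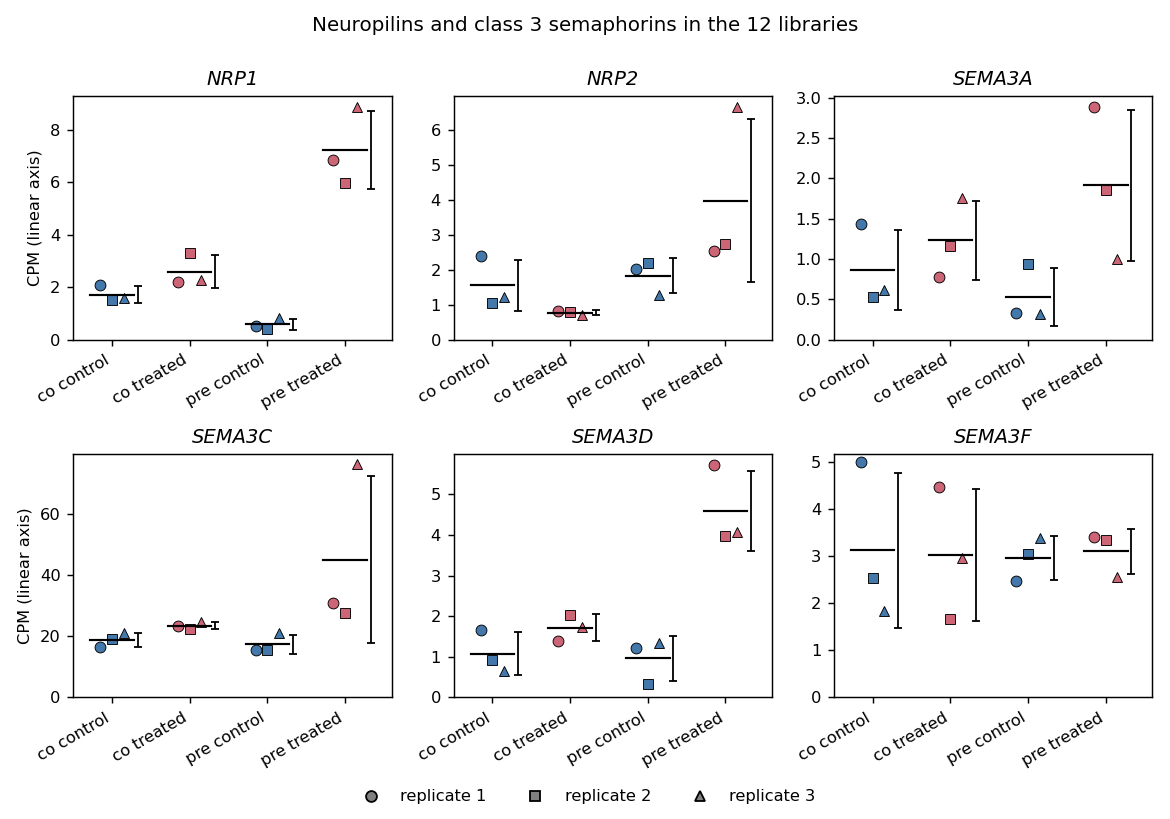
CPM of NRP1, NRP2 and 4 class 3 semaphorins in each library, with 1 panel per gene and a linear axis from 0. Each symbol is a library, lines are group means and bars 1 SD over 3 libraries. The pre-treated libraries lie above all pre-treatment controls for every gene shown but SEMA3F, and treated replicate 3 is the highest for NRP1, NRP2 and SEMA3C.

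Genes of mesenchymal or substrate-adherent cells, another state in which neuroblastoma cells grow, were measured beside these members. Of the 12 markers listed, VIM and COL3A1 were called higher after pre-treatment over 6 libraries, and VIM, COL3A1, CD44 and YAP1 over 5. Of the 10 tested over 6 libraries, 6 had a log2FC above 0 and 4 below it (FN1, SNAI2, TWIST1 and COL1A1, from -0.60 to -0.01), with a median of 0.27, and COL1A1 lay under 1 CPM in all treated libraries but not in all controls. VIM, an intermediate filament protein, had 3.07, 4.05 and 5.0 CPM in control replicates 1 to 3 and 22.8, 19.4 and 21.7 CPM in treated replicates 1 to 3, and COL3A1, a fibrillar collagen, had 22.2, 13.3 and 17.7 CPM in control replicates 1 to 3 and 111, 86.3 and 85.2 CPM in treated replicates 1 to 3. The summed level of the list was 343 to 457 CPM in controls and 414 to 453 CPM in treated cells, and PRRX1, YAP1 and COL1A2 were below 1 CPM in all 6 libraries. In the co-treatment experiment VIM was called as well, with a log2FC of 1.16 (SE 0.21, adjusted p = 0.0272). The 10 noradrenergic markers, which characterise the neuronal state, summed to 2679 to 4198 CPM in pre-treatment controls and 1854 to 2539 CPM in treated cells, and the 5 markers of dividing cells to 724 to 1016 and 358 to 779 CPM. Of the 9 noradrenergic markers tested, 5 had a log2FC below 0 and 4 above it, over 6 and over 5 libraries alike. All 5 markers of dividing cells lay below 0 over 6 libraries, whereas over 5 libraries 2 lay below 0 and 3 above it. The part of these 3 sets of markers in the levels of NRP1 and the class 3 semaphorins was not tested.

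The plexins, which carry the semaphorin signal into the cell, followed a common direction in pre-treated cells. All 9 had a log2FC below 0 over the 6 libraries, from -1.06 (PLXNA2) to -0.29 (PLXNC1), and none was called. Over all genes tested, 50.6% had a log2FC below 0. In 2 of the 9, every treated library lay below every control, against 8.47% of all genes. In each plexin, control replicate 3 lay nearer to the treated mean than to the mean of control replicates 1 and 2. On a log2 scale from 0 (those controls) to 1 (treated), its position ran from 0.527 (PLXND1) to 1.54 (PLXNC1). PLXNA2 (chromosome 1, 208195587 to 208417729) had 1001, 1051 and 389 CPM in control replicates 1 to 3 and 324, 381 and 436 CPM in treated replicates 1 to 3. Control replicates 1 and 2 were the highest libraries, whereas control replicate 3 lay within the range of the treated cells. The log2FC was -1.06 (SE 0.35, adjusted p = 0.334) over 6 and -1.36 (SE 0.14, adjusted p = 0.00107) over 5 libraries. PLXNA3, another class A plexin, had 65.9, 81.2 and 27.8 CPM in control replicates 1 to 3 and 25.3, 34.7 and 23.9 CPM in treated replicates 1 to 3, with control replicate 3 again among the treated libraries, and log2FC values of -1.02 (SE 0.35, adjusted p = 0.348) and -1.33 (SE 0.18, adjusted p = 0.00252). PLXNB2, a receptor of class 4 semaphorins, was lower in treated cells than in any control, with 202, 249 and 136 CPM in control replicates 1 to 3 and 101, 117 and 109 CPM in treated replicates 1 to 3 and log2FC values of -0.81 (SE 0.22, adjusted p = 0.32) and -0.97 (SE 0.13, adjusted p = 0.00229). Over 5 libraries, 8 of the 9 plexins passed the FDR of 0.05, all lower, where 12.8% of all genes did so. Of these, PLXNA2, PLXNA3 and PLXNB3 (-1.24) also passed the log2FC threshold of 1. PLXNC1 was the exception (-0.49, adjusted p = 0.0705). The call of PLXNB3 was lost without control replicate 2 (adjusted p = 0.235) or treated replicate 1 (0.0833), and 20.4% of its exonic bases lie in exons of another gene on the same strand.

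Of the semaphorins of classes 4 to 7, most of which are bound to the membrane, SEMA4D alone was called after pre-treatment. SEMA4D, a ligand of PLXNB1, had 52.9, 62.5 and 28 CPM in control replicates 1 to 3 and 21.7, 27.5 and 32.2 CPM in treated replicates 1 to 3, and its log2FC was -0.78 (SE 0.29, adjusted p = 0.372) over 6 and -1.02 (SE 0.17, adjusted p = 0.00545) over 5 libraries. Control replicate 3 lay within the treated range. The call, made over 5 libraries only, was lost without control replicate 2 (adjusted p = 0.0539) and, by a log2FC of -0.89, without treated replicate 1. SEMA4B had the lowest log2FC of its class over 6 libraries (-0.85), and its treated libraries lay below all 3 controls. Over 5 libraries it passed the FDR but not the log2FC threshold (-0.98, adjusted p = 0.00534).

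Among netrin receptors, UNC5B (chromosome 10, 72972327 to 73062621), the most abundant member per kilobase, fell in pre-treated cells over 5 libraries. It had 842, 765 and 614 CPM in control replicates 1 to 3 and 329, 374 and 299 CPM in treated replicates 1 to 3. Each treated library lay below each control, control replicate 3 included, and the means were 740.2 ± 116 CPM (SD, n = 3) and 334 ± 38.0 CPM (SD, n = 3). The log2FC was -1.12 (SE 0.20, adjusted p = 0.242) over 6 libraries, the smallest p among members that were lower but not called, and -1.20 (SE 0.13, adjusted p = 0.00123) over 5, called there with any 1 library left out. The edgeR exact test and DESeq2 called it also over 6 libraries (adjusted p = 0.00115 and 1.87e-05). UNC5C, a related receptor, had 485, 555 and 269.6 CPM in control replicates 1 to 3 and 236, 262 and 296 CPM in treated replicates 1 to 3, and passed the FDR over 5 libraries only, with a log2FC of -0.90 (SE 0.13, adjusted p = 0.00349). Control replicate 3 lay within its treated range. DCC was read at low depth, with 0.799, 1.12 and 0.244 CPM in control replicates 1 to 3 and 0.197, 0.279 and 0.113 CPM in treated replicates 1 to 3. Its log2FC of -2.21 (SE 0.47, adjusted p = 0.0119) was called over 5 libraries but not over 6 (-1.82, adjusted p = 0.356), and not without control replicate 2 (adjusted p = 0.103). None of the 6 netrins was called.

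All 3 slits had a log2FC below 0 after pre-treatment, against 50.6% of all genes tested over 6 libraries. All 3 were called lower over 5 libraries, where 8.23% of all genes were, and none over 6. SLIT3 (chromosome 5, 168088745 to 168728143), the most abundant, had 814, 1039 and 447 CPM in control replicates 1 to 3 and 308, 383 and 494 CPM in treated replicates 1 to 3. Control replicates 1 and 2 lay above the other 4 libraries, and control replicate 3 lay within the treated range. The log2FC was -0.92 (SE 0.32, adjusted p = 0.347) over 6 and -1.16 (SE 0.20, adjusted p = 0.00567) over 5 libraries, the latter call lost without control replicate 2 (adjusted p = 0.0521). SLIT2 had 35.8, 24.8 and 17.6 CPM in control replicates 1 to 3 and 12.7, 12.6 and 3.92 CPM in treated replicates 1 to 3, so that each treated library lay below each control, and treated replicate 3 was the lowest. Its log2FC was -1.39 (SE 0.44, adjusted p = 0.324) over 6 and -1.57 (SE 0.43, adjusted p = 0.0293) over 5 libraries, and the latter call was lost without control replicate 1 or 2 (adjusted p = 0.149 and 0.0811) and with DESeq2 (0.0565). SLIT1 was scarce, with 0.726, 3.86 and 0.152 CPM in control replicates 1 to 3 and 0.104, 0.147 and 0.727 CPM in treated replicates 1 to 3, and control replicate 2 alone held more than 1 CPM. It was called over 5 libraries (-2.73, adjusted p = 0.0468) and not without control replicate 2 (-1.08, adjusted p = 0.502), treated replicate 1 (0.109) or treated replicate 2 (0.115), nor with DESeq2 (0.0915). Of their receptors, ROBO1 and ROBO2 passed the FDR over 5 libraries with log2FC values of -0.63 (SE 0.10, adjusted p = 0.00466) and -0.75 (SE 0.11, adjusted p = 0.00352), while ROBO3, which differs from them in its response to slits, had a log2FC of 0.63 (SE 0.20, adjusted p = 0.0456). None of the 3 reached the log2FC threshold of 1. Beside the members that were lower, all 5 neuronal markers had a log2FC below 0 over 6 libraries, with a median of -0.32 and 3 of 5 without overlap between the groups, and the part of this in the levels of plexins, slits and UNC5B was not tested.

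In 6 of the 8 ephrins and EPH receptors of the B class, every pre-treated library lay below every control, namely in EFNB2, EFNB3, EPHB2, EPHB3, EPHB4 and EPHB6. EFNB2 (ephrin B2, chromosome 13, 107142093 to 107188010), a transmembrane ligand, had 154, 175 and 138 CPM in control replicates 1 to 3 and 88.0, 98.2 and 68.6 CPM in treated replicates 1 to 3. EPHB2, one of its receptors, had 122, 126 and 115 CPM in control replicates 1 to 3 and 66.9, 73.9 and 55.1 CPM in treated replicates 1 to 3, and EPHB3 had 32.8, 36.0 and 22.8 CPM in control replicates 1 to 3 and 14.4, 17.3 and 12 CPM in treated replicates 1 to 3. A downward gap of this kind was found in 15 of the 66 members tested and in 8.47% of all genes tested. Over 6 libraries the log2FC was -0.85 (SE 0.19, adjusted p = 0.32) for EFNB2, -0.86 (SE 0.16, adjusted p = 0.279) for EPHB2 and -1.04 (SE 0.22, adjusted p = 0.32) for EPHB3, and none was called. The exact test and DESeq2 called EPHB3 there (adjusted p = 0.0185 and 0.006). Without control replicate 3 it was -0.88 (SE 0.16, adjusted p = 0.00616), -0.86 (SE 0.14, adjusted p = 0.0044) and -1.17 (SE 0.17, adjusted p = 0.00343), and EPHB3 alone passed the log2FC threshold of 1, with any 1 library left out as well. The log2FC over 6 and over 5 libraries was -0.56 and -0.64 for EFNB3, -0.40 and -0.26 for EPHB4 and -0.92 and -0.69 for EPHB6. EPHB6 was scarce, at 0.238 to 0.777 CPM in these libraries. The unadjusted p of the quasi-likelihood test over 6 and over 5 libraries was 0.0546 and 0.113 for EPHB4 and 0.0682 and 0.142 for EPHB6. The groups overlapped in EFNB1, which had 5.54, 7.49 and 7.65 CPM in control replicates 1 to 3 and 7.11, 6.92 and 7.37 CPM in treated replicates 1 to 3 and log2FC values of 0.07 and 0.20, and in EPHB1, at most 0.394 CPM in any of these libraries, with 0.97 and 0.65. For EFNB2, 36.4% of the exonic bases lie in exons of a gene on the opposite strand, and the strand setting of the counting is not stated.

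No member of the A class of ephrins and EPH receptors was called after pre-treatment. EFNA1, a ligand anchored by a lipid, passed the FDR over 5 libraries with a log2FC of 0.54 (SE 0.15, adjusted p = 0.0334) and had 14.2, 14.4 and 24.3 CPM in control replicates 1 to 3 and 21.6, 20.0 and 17.7 CPM in treated replicates 1 to 3, with control replicate 3 above every treated library. Its log2FC over 6 libraries was 0.19 (SE 0.25, adjusted p = 0.794). EPHA6 had 34.9, 22.7 and 19.4 CPM in control replicates 1 to 3 and 34.2, 35.1 and 41.0 CPM in treated replicates 1 to 3 and a log2FC of 0.55 (SE 0.23, adjusted p = 0.429) over 6 and 0.42 (SE 0.19, adjusted p = 0.139) over 5 libraries, with control replicate 1 inside the treated range. Of the other EPHA receptors tested, EPHA1 had log2FC values of -0.39 and -0.51 over 6 and 5 libraries, EPHA2 of 0.31 and 0.39, EPHA8 of 0.33 and 0.01 and EPHA10 of 0.40 and 0.45. Of the other A ephrins, EFNA2 had -0.58 and -0.36, EFNA3 0.10 and 0.36, EFNA4 -0.26 and -0.07 and EFNA5 -0.74 and -0.99.

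**Figure D2:**
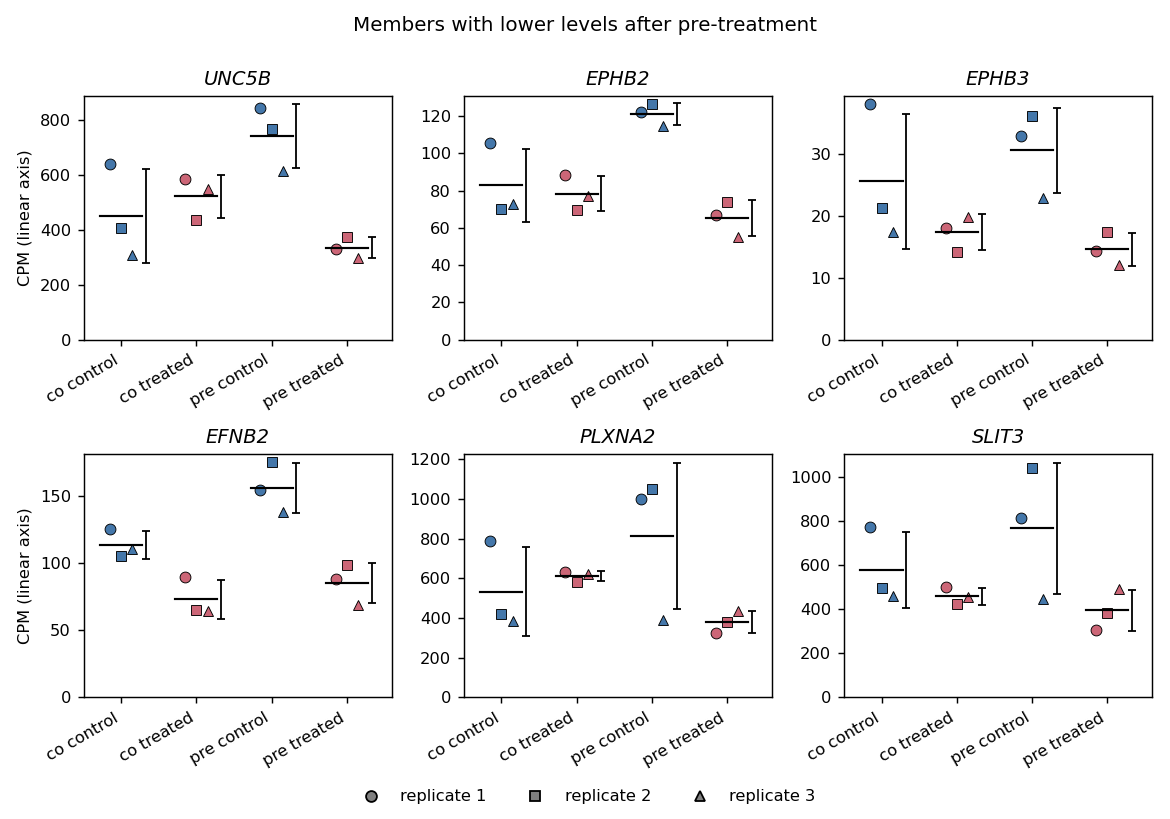
CPM of 6 members that were lower after pre-treatment, in each library, drawn as symbols with group means and bars of 1 SD over 3 libraries on linear axes from 0. For UNC5B, EPHB2, EPHB3 and EFNB2 every pre-treated library lies below every pre-treatment control, whereas for PLXNA2 and SLIT3 control replicate 3 (triangle) lies among the treated libraries.

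Over all 6 libraries, 25 of the 66 members tested had an unadjusted p under 0.05, against 11.2% of all genes tested. Of these, 7 were higher (4.03% of all genes) and 18 lower (7.19%). After adjustment NRP1 was left. The median log2FC of the 66 was -0.39, against -0.01 over all genes tested. Without control replicate 3, 13 of the 66 members were called at a log2FC beyond 1, where 11.2% of the 26350 genes tested were called. The 3 that rose were NRP1, SEMA3C and SEMA3D (2.98% of all genes), and the 10 that fell were DCC, EPHB3, PLXNA2, PLXNA3, PLXNB3, SEMA4D, SLIT1, SLIT2, SLIT3 and UNC5B (8.23% of all genes). With the FDR alone, 29 members passed (26.1% of all genes), of which 5 were higher and 24 lower, against 13.2% and 12.8% of all genes. Groups did not overlap in 34 members that were lower and 9 that were higher, against 31.5% and 25.7% of all genes. Control replicate 3, which took no part in these calls, lay nearer to the treated than to the control mean on the log2 scale in 7 of the 13 called members and in 88.6% of the 2952 called genes.

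When H2O2 was given together with ATRA, SEMA5A (semaphorin 5A, chromosome 5, 9035145 to 9546187), a membrane-bound semaphorin with thrombospondin repeats, fell. It had 149, 95.8 and 94.4 CPM in control replicates 1 to 3 and 48.5, 44.5 and 41.6 CPM in treated replicates 1 to 3, so that each treated library held less than the lowest control. The means were 113 ± 30.9 CPM (SD, n = 3) and 44.9 ± 3.45 CPM (SD, n = 3), and the log2FC was -1.33 (SE 0.18, adjusted p = 0.00505). It was the only one of the 64 members tested that passed the FDR of 0.05 at a log2FC beyond 0.6 in either direction, where 0.598% of the 22089 genes tested were called, 0.335% higher and 0.263% lower. The call held without any 1 library but treated replicate 3 (adjusted p = 0.0725, log2FC -1.28). After pre-treatment SEMA5A had 162, 213 and 67.1 CPM in control replicates 1 to 3 and 63.0, 78.3 and 127 CPM in treated replicates 1 to 3, and its log2FC was -0.68 (SE 0.41, adjusted p = 0.565) over 6 and -0.995 (SE 0.26, adjusted p = 0.0268) over 5 libraries. Neither was called, the latter since it stayed under the log2FC threshold of 1, and 6 of 10 alternatives called it over 5 libraries, among them DESeq2 (adjusted p = 0.00353) and RLE factors (0.0261).

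The members with the next smallest p did not pass the adjustment. EFNB2 had 125, 105 and 111 CPM in control replicates 1 to 3 and 89.7, 65.0 and 64.3 CPM in treated replicates 1 to 3, a log2FC of -0.64 (SE 0.15, adjusted p = 0.104), and EFNA2, another ephrin, had 24.4, 17.7 and 14.0 CPM in control replicates 1 to 3 and 12.2, 8.87 and 11 CPM in treated replicates 1 to 3, a log2FC of -0.81 (SE 0.20, adjusted p = 0.151). In both genes the groups did not overlap. SLIT1 had 1.53, 0.533 and 0.468 CPM in control replicates 1 to 3 and 0.142, 0.161 and 0.253 CPM in treated replicates 1 to 3 and a log2FC of -2.16 (SE 0.58, adjusted p = 0.185), again with few reads. With edgeR's exact test the adjusted p was 0.0154 for EFNB2, 0.0273 for EFNA2 and 0.0416 for SLIT1. Of the 64 members, 47 had a log2FC below 0 (50.1% of all genes tested). Groups did not overlap in 13 that were lower (7.37% of all genes) and 5 that were higher (6.58%). An unadjusted p under 0.05 was found for 19 members (8.15% of all genes). Among these, 13 were lower (4.41% of all genes), and 6 were higher (3.74%). Their median log2FC was -0.20, and that of all genes tested lay at -0.00. Without control replicate 1 the median of the members was -0.08. That library had 0.370 reads assigned to no gene feature per read on a gene, against 0.285 and 0.284 in the other controls and 0.263 to 0.429 in treated cells. The noradrenergic markers summed to 3269 to 4132 CPM in controls and 2354 to 3112 CPM in co-treated cells. The part of either in these results was not tested.

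In the upward direction, SLIT2 (chromosome 4, 20253528 to 20622184), a repellent for many axons, had 16.3, 10.3 and 10.0 CPM in control replicates 1 to 3 and 21.3, 26.6 and 16.6 CPM in treated replicates 1 to 3. Each treated library exceeded each control, and the log2FC of 0.82 (SE 0.22, adjusted p = 0.185) was not called. Without control replicate 1 it was called (1.09, adjusted p = 0.00884). The exact test, DESeq2 and the fit with no filter on low counts also called it (adjusted p = 0.0408, 0.0193 and 0.000233). SEMA6D, a ligand of PLXNA1, had 34.7, 32.8 and 27.0 CPM in control replicates 1 to 3 and 39.1, 43.2 and 44.8 CPM in treated replicates 1 to 3, and its log2FC of 0.43 (SE 0.13, adjusted p = 0.3) was not called although the groups did not overlap. PLXNA4, a class A plexin that is a main receptor for SEMA3A signals in sympathetic neurons, had 339, 156 and 130.1 CPM in control replicates 1 to 3 and 306, 324 and 360.3 CPM in treated replicates 1 to 3. Control replicate 1 lay within the treated range, and leaving it out moved the log2FC from 0.67 (adjusted p = 0.548) to 1.21 (adjusted p = 0.000291). Without control replicate 1 PLXNA2 was called as well, its log2FC moving from 0.20 to 0.60 (adjusted p = 0.0241). NTNG1 (netrin G1), a lipid-anchored netrin, had 1.35, 0.896 and 0.819 CPM in control replicates 1 to 3 and 1.56, 1.86 and 1.85 CPM in treated replicates 1 to 3 and a log2FC of 0.78 (SE 0.31, adjusted p = 0.489).

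**Figure D3:**
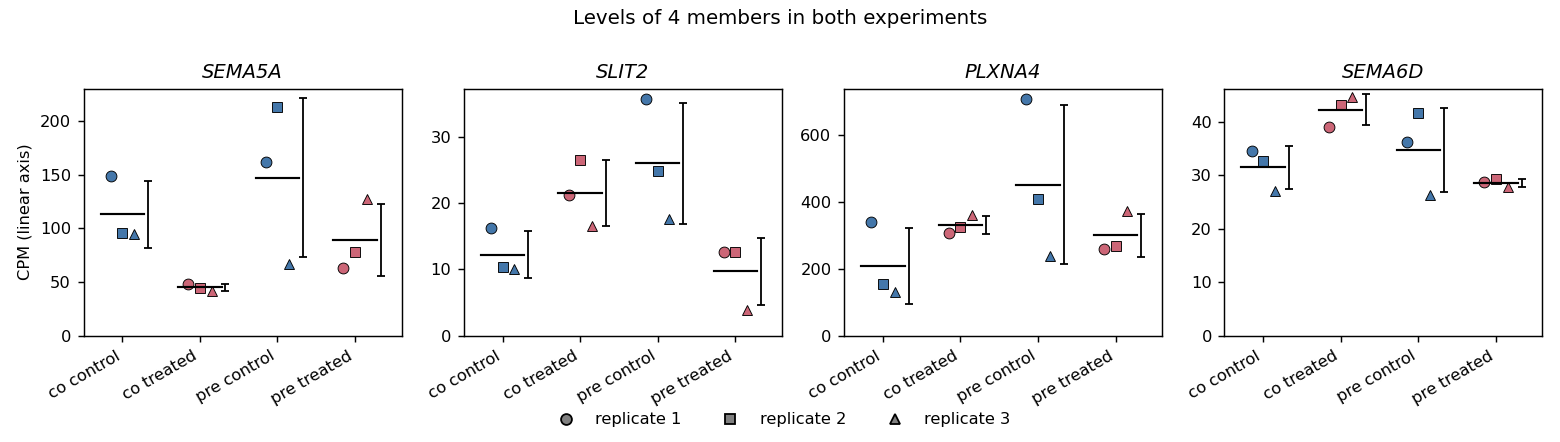
CPM of SEMA5A, SLIT2, PLXNA4 and SEMA6D in each library of both experiments on linear axes from 0, with group means and bars of 1 SD over 3 libraries. All co-treated libraries lie below their controls for SEMA5A and above them for SLIT2 and SEMA6D, while pre-treated libraries lie below their controls for SLIT2.

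A difference in response between the experiments was tested with an interaction term in edgeR's quasi-likelihood model. Over all 12 libraries, NRP1 alone of the 64 members tested passed an FDR of 0.05, with a difference of 3.02 (SE 0.43, adjusted p = 0.0353) on the log2 scale (pre-treatment minus co-treatment), where 0.0287% of all genes passed. Without pre-treatment control replicate 3, 9 of 65 members passed, against 8.02% of all genes. For 1 of them, NRP1, the difference was above 0 (3.32% of all genes), and for 8 below 0 (4.7%). The pre-treatment controls in this comparison are replicates 1 and 2 alone. Effects of treatment and of library composition therefore cannot be told apart in it either. Of the 8, SLIT2 had a difference of -2.44 (SE 0.52, adjusted p = 0.0164). Its log2FC was above 0 after co-treatment and below 0 after pre-treatment. UNC5B had a difference of -1.47 (SE 0.31, adjusted p = 0.0169), PLXNA2 of -1.62 (SE 0.32, adjusted p = 0.0131) and PLXNA4 of -1.55 (SE 0.44, adjusted p = 0.0449). SEMA4D, PLXNB2, SEMA6D and EPHB2 had differences of -0.94, -0.89, -0.86 and -0.83, with adjusted p-values of 0.0162 to 0.0472. NRP1 passed with any 1 of the 11 libraries left out and with a difference of 3.37 (SE 0.40, adjusted p = 0.00229). PLXNA2 did not pass without pre-treatment control replicate 2 (adjusted p = 0.0602), SLIT2 without co-treatment control replicate 2 (adjusted p = 0.0527) or pre-treatment control replicate 1 (adjusted p = 0.053), SEMA6D without co-treatment or pre-treatment control replicate 2 (adjusted p = 0.051 and adjusted p = 0.111), and UNC5B without either of these (adjusted p = 0.0603 and adjusted p = 0.0633) or pre-treatment control replicate 1 (adjusted p = 0.0543). EPHB2 passed in 1 of the 11 such fits, and PLXNA4, PLXNB2 and SEMA4D in 2 each. With pre-treatment control replicate 3 included, NRP1 passed only with all 12 libraries, and its adjusted p rose to at most 0.136 without 1 of the others. The adjusted p of the other 8 was 0.381 to 0.584. SEMA5A, which fell after co-treatment, had a difference of 0.61 (SE 0.50, adjusted p = 0.713) over 12 and 0.28 (SE 0.34, adjusted p = 0.629) over 11 libraries, and neither passed.

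**Figure D4:**
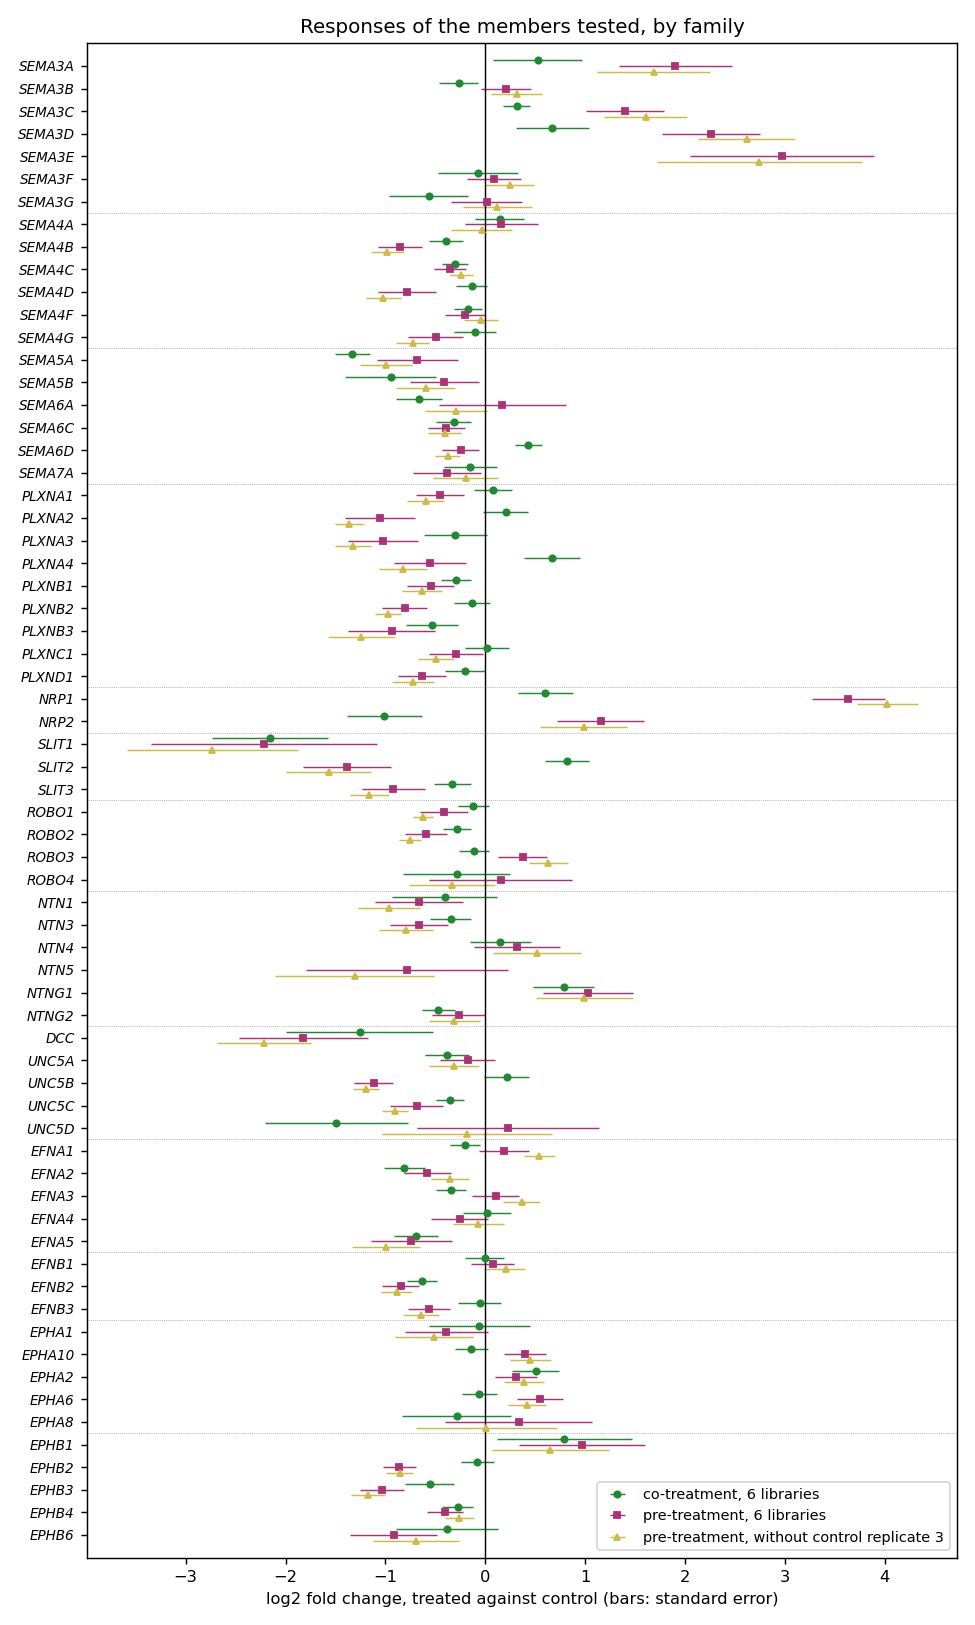
Log2 fold change of treated against control cells for the 66 members tested in the pre-treatment experiment, ordered by family, in the co-treatment comparison (circles), the pre-treatment comparison over 6 libraries (squares) and without control replicate 3 (triangles), with bars for the standard error. NRP1 lies farthest to the right after pre-treatment (3.64 and 4.03), and all 9 plexins lie left of 0 in both pre-treatment comparisons.

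Proteins that pass on these signals were listed as 91 symbols that are not ligands or receptors of the 71. After co-treatment, 1 of 85 tested was called (0.598% of all genes tested), CXCR4, a chemokine receptor that modulates responses to slits, with a log2FC of -0.69 (SE 0.12, adjusted p = 0.0231). Over the 6 pre-treatment libraries, 0 of 87 were called by edgeR's quasi-likelihood test, and 19 had an unadjusted p under 0.05 (11.2% of all genes). The exact test called 3 of them and DESeq2 3, where these tests called 240 and 447 of the 24743 genes. By list, the 5-library comparison called 3 of 26 semaphorin, 5 of 22 slit, 1 of 19 ephrin and 4 of 21 netrin partners. Together these were 13 of 88 (11.2% of all genes tested), 1 higher (2.98% of all genes) and 12 lower (8.23%), with a median log2FC of -0.08. The adhesion molecule L1CAM, a partner of NRP1 in the SEMA3A receptor, had 308, 415 and 131 CPM in control replicates 1 to 3 and 88.9, 121 and 95.5 CPM in treated replicates 1 to 3 and a log2FC of -1.45 (SE 0.37, adjusted p = 0.32) over 6 and -1.76 (SE 0.17, adjusted p = 0.00098) over 5 libraries. The kinase PAK2 (-1.40) and FARP1 (-1.18), an exchange factor that works with plexins, were called lower over 5 libraries as well, and had a log2FC of -1.09 and -0.95 over 6. With the FDR alone over 5 libraries, 7 partners were higher and 24 lower, against 13.2% and 12.8% of all genes. FLRT3, a membrane protein that binds UNC5 receptors, was the single partner of the 7 above the log2FC threshold of 1. Its log2FC was 1.31 (SE 0.23, adjusted p = 0.0066) over 5 libraries and 1.24 (SE 0.23, adjusted p = 0.266) over 6.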

How the data were processed

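Total RNA of 12 SH-SY5Y cell libraries was depleted of ribosomal RNA and sequenced as stranded libraries. The authors trimmed reads (cutadapt 2.10, checked with FastQC 0.11.8), aligned them to hg19 with HISAT2 2.1.0 and deposited raw read counts per gene made with HTSeq 0.7.2, per the labels. The strand setting of the counting and the annotation release are not given in the sources used here. The deposited comparison tables (log2 fold changes, mean log2 CPM, p-values and FDR) were not used.

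Genes reaching 5 reads in the smallest library, as CPM, in 3 libraries (2 in the 5-library comparison) were tested with edgeR 4.0.16 in R 4.3.3, using TMM factors, the quasi-likelihood test (two-sided) and Benjamini-Hochberg adjustment over all genes tested. Following the study's thresholds, a call needed an FDR under 0.05 and a log2FC beyond 0.6 for co-treatment, or beyond 1 for pre-treatment, in either direction, and an interaction at an FDR below 0.05. CPM values use TMM factors over the 12 libraries, with a total of 27576276 to 98287391 counted reads each. Lines that name no gene stayed out of totals and tests, and reads that HTSeq assigned to no gene feature came to 0.200 to 0.830 per counted read. Standard errors are the absolute log2FC divided by the square root of F. Gene positions and exon lengths come from GENCODE for hg19, and promoters from a RefSeq table.

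The fits were tested on simulated data. Alternatives were edgeR's exact test, DESeq2 1.42.0, RLE factors, no filter, a replicate block, no log2FC threshold and leaving out each library. Named are members called in any comparison, the 4 with the smallest p in each direction of the co-treatment and both pre-treatment comparisons, the most abundant of each family, and up to 3 called partners a direction. Other members were named to complete a family, after their values were seen. The members and lists were chosen with earlier results of these data known.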

Additional observations from a re-analysis of the deposited data

Results flagged for a closer look

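For 9 members the interaction of treatment and experiment passed an FDR of 0.05 in edgeR's quasi-likelihood test. Each value is the log2FC after pre-treatment minus that after co-treatment. NRP1 differed by 3.02 over all 12 libraries and by 3.37 without pre-treatment control replicate 3. The other 8 passed only without that library, where 9 of 65 members passed, against 8.02% of all genes. SLIT2 differed by -2.44, PLXNA2 by -1.62, PLXNA4 by -1.55 and UNC5B by -1.47. SEMA4D differed by -0.94, PLXNB2 by -0.89, SEMA6D by -0.86 and EPHB2 by -0.83. With 1 of the 11 libraries left out, EPHB2 passed in 1 of 11 fits and PLXNA4, PLXNB2 and SEMA4D in 2 each. With 1 of the 12 libraries left out, NRP1 passed in 1 of 12. Effects of treatment and of library composition cannot be told apart over the 11 libraries.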

How the results depend on the processing

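After co-treatment, 1 member was called, against 5 with edgeR's exact test, 5 with DESeq2, 7 with no filter on low counts and 0 to 4 when 1 library was left out. Over the 6 pre-treatment libraries 1 was called, against 4 (exact test), 6 (DESeq2), 5 (no filter) and 0 to 13 (1 library left out, 13 without control replicate 3). Over 5 libraries the 13 calls became 29 with no log2FC threshold and 7 to 18 with 1 further library left out, 7 without control replicate 2. Interactions passed by 1 member over 12 libraries became 3 (DESeq2), 5 (no filter) and 0 to 9, and the 9 over 11 libraries became 14, 17 and 2 to 19, with 19 without co-treatment control replicate 1 and 2 without control replicate 2 of either experiment. With the replicate number as a block, 2 members were called after co-treatment, 0 over 6 and 16 over 5 pre-treatment libraries, and 0 and 15 interactions passed over 12 and 11 libraries. Same-numbered libraries correlated in their deviations from the group means by -0.08 to -0.04 (co-treatment) and by -0.27 to 0.03 (pre-treatment), and 0 of 6 and 1 of 6 correlated best with their own number. With 3 libraries per group, a single one such as pre-treatment control replicate 3 can set these deviations. Whether same-numbered libraries were handled together is therefore not settled.

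Over all genes, the counts of calls were 132 for co-treatment, against 311 (exact test), 304 (DESeq2) and 443 (no filter), and 6 for pre-treatment over 6 libraries, against 240, 447, 300 and, with the block, 0. The interaction counts of 7 and 2058 became 103 and 3386 with DESeq2 and 272 and 3847 with no filter. Of 736 alternative values of the named members, 648 kept their direction and side of the threshold, 24 lost the call and 60 gained one. Without co-treatment control replicate 1, the co-treatment log2FC changed sign in 4 members that were not called, and with 1 library left out it ranged from -0.19 to 0.13 (EPHB2), -0.59 to 0.33 (PLXNA3), -0.26 to 0.084 (PLXNB2) and -0.27 to 0.0024 (SEMA4D). The cause of these changes was not tested. Counts under about 1 CPM, as in DCC and SLIT1, limit what could be detected at this depth.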
